A study of Homo sapiens with 6 samples.

Results

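Autophagy is the route by which a cell wraps part of its cytoplasm in a membrane and delivers it to the lysosome, and transcripts of its core machinery were followed here in 22Rv1 cells, an established prostate cancer cell line. The set holds 39 genes chosen by name from knowledge of the pathway, with earlier results of these data already known. It consists of the 34 genes of the ULK1 kinase, PI3K class III, lipid transfer, conjugation and ATG8 groups and the fusion SNARE, and 5 cargo receptors. All 39 were present among the 29804 gene symbols counted, and all 39 passed the filter on low counts, as did 14672 symbols in total. RNA was sequenced from 3 groups of 2 libraries, labelled as biological replicates, all of genotype WT by the labels. WT cells were untreated and taken at week 0. AM cells, the age-matched control, were kept in culture untreated to week 6. 6WP cells received 1 µg/ml of phleomycin, a radiomimetic drug that breaks DNA, every week day for 6 weeks, in exposures of 1 hour according to the methods. All groups derive from this single line, and no source used here says whether the replicates were split before or after the weeks of treatment, so p-values measure the spread between these libraries. Library totals ran from 21222201 to 35311945 counts. In them 3 counts, taken as the detection floor, equalled 0.0850 to 0.141 CPM (counts scaled to the library total), before TMM. All other CPM values given here are after TMM. In the cells' own marker check, 8 luminal epithelial genes summed to between 1472 and 2620 CPM in every library, against 1.74 to 4.23 CPM for 4 fibroblast, 3.11 to 3.96 CPM for 4 leukocyte and at most 0.138 CPM for 3 endothelial genes, with CD3E, PTPRC and CDH5 at 0. The epithelial sum was 2353 to 2428 CPM in WT, 1472 to 1722 CPM in AM and 1847 to 2620 CPM in 6WP, and its part in the results was not tested. As in any bulk RNA measurement, fewer cells expressing a gene and less RNA per cell cannot be told apart.

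In autophagy, the ULK1 kinase complex receives nutrient and stress signals and switches on the PI3K class III complex, which makes the lipid PI3P on a forming membrane. PI3P-binding proteins and lipid carriers then let that membrane grow, while a ubiquitin-like conjugation system attaches ATG8 proteins to it, and cargo receptors bind ubiquitylated material with a separate surface for ATG8. Much of this control acts on proteins and on flux through the lysosome, which transcript levels do not measure, and stress-responsive transcription factors such as TFEB and ATF4 are known to raise some of these genes.

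Transcript levels in the set spanned a wide range in WT cells. Divided by the length of the canonical transcript, levels were highest for GABARAP (264 CPM per kb, mean of 2 libraries), followed by its relative GABARAPL2 (100.5 CPM per kb) and by the receptors SQSTM1 (63.1 CPM per kb) and NBR1 (55.0 CPM per kb). The lowest level belonged to the receptor OPTN at 0.280 CPM per kb, and the next lowest to the PI3K complex members UVRAG (2.68 CPM per kb) and ATG14 (2.75 CPM per kb). Within the ATG8 family, the per-length level in WT cells ran, from high to low, GABARAP, GABARAPL2, MAP1LC3B (36.2 CPM per kb), MAP1LC3A (31.2 CPM per kb) and GABARAPL1 (6.87 CPM per kb). In 6WP cells MAP1LC3B stood at 61.5 CPM per kb, still below GABARAPL2 at 102 CPM per kb, and in AM cells GABARAPL1 stood at 3.33 CPM per kb. Exons of GABARAP overlap another gene on the same strand over 35.4% of their length and those of ATG9A over 38.8%, so the share of reads assigned to each is uncertain.

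**Figure D1:**
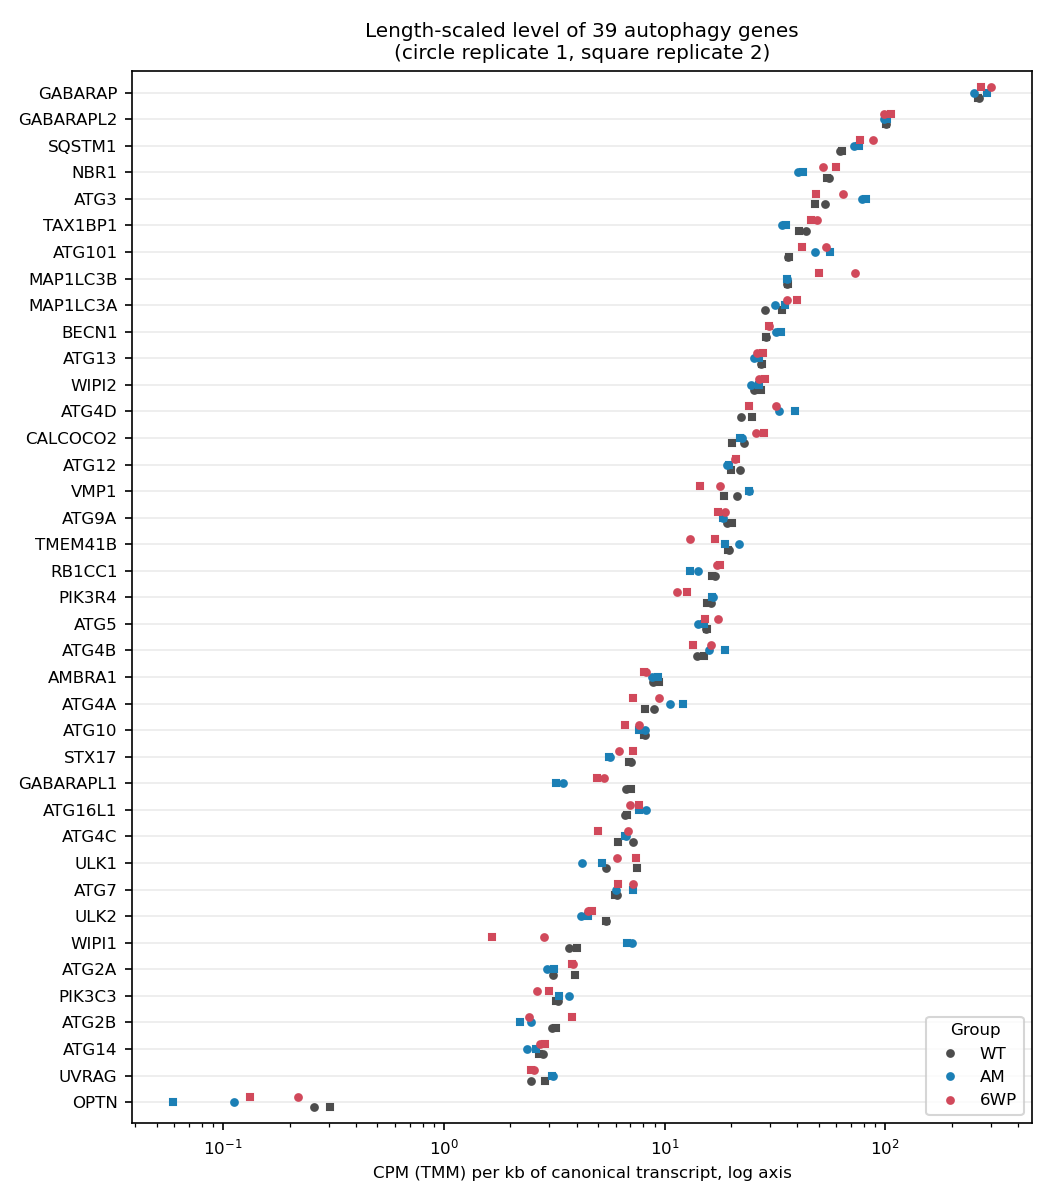
Transcript level of the 39 genes in CPM per kb of canonical transcript on a log axis, ordered by the WT mean, with a point for each of the 6 libraries coloured by group. GABARAP is at the top and OPTN at the bottom, and the libraries of most genes lie close together beside the spread between genes.

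The comparison of 6WP with WT cells sets cells after 6 weeks of repeated DNA damage against cells at week 0, so drug and time in culture cannot be told apart in it. No member passed an adjusted p of 0.05 by edgeR's quasi-likelihood test, 0 of 39, where 3.00% of all tested genes passed (1.63% higher and 1.37% lower in 6WP). At an unadjusted p under 0.05, 8 of 39 members passed, beside 22.4% of all genes, and DESeq2 called 2 of 39, MAP1LC3B higher and PIK3R4 lower, beside 8.06% of the genes it adjusted. The members' log2 fold changes ran from -0.78 (WIPI1) to 0.77 (MAP1LC3B), and 27 of 39 were within 0.25 of 0, beside 7924 of 14672 tested genes. The members' median was 0.02 against 0.01 over all genes, a sign that turned to -0.00 when libraries were scaled by their totals alone. The median SE of a member's log2 fold change was 0.132, beside 0.168 over all tested genes. Changes several times the members' median SE did not pass. Leaving out a 6WP library leaves that group with 1, and the number of called members then rose with the share over all genes.

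The comparison of 6WP with AM cells sets treated cells against cells of the same culture age. Here 9 members passed, 5 higher and 4 lower in 6WP, which is 23.1% of the set beside 21.3% of all tested genes (11.7% higher and 9.68% lower), a share near the background. RB1CC1, GABARAPL1, MAP1LC3B, NBR1 and TAX1BP1 were higher, and PIK3R4, WIPI1, VMP1 and ATG3 were lower. The members' median log2 fold change was 0.05, the same as over all genes, and the range was -1.63 to 1.08. With only the 4 libraries compared, WIPI1 alone was called, beside 9.07% of all genes. Leaving out a library leaves a group with 1, and the number of called members then fell or rose with the share over all genes.

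The comparison of AM with WT cells gives the change over 6 weeks in culture without the drug. Here 7 members passed, 4 higher and 3 lower in AM, which is 17.9% of the set beside 17.7% of all tested genes (7.74% higher and 9.93% lower), again near the background. ATG101, WIPI1, ATG3 and ATG4D were higher, and GABARAPL1, NBR1 and OPTN were lower. With libraries scaled by their totals alone the split was 1 higher and 4 lower, and over all genes the higher share of calls went from 43.8% to 30.5%. Fitting the WT and AM libraries alone gave 17 called members, beside 46.5% of all genes. With a library left out, which leaves a group with 1, the number of called members again fell or rose with the share over all genes.

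Both latter comparisons contain the AM libraries, so a gene that stood apart in AM cells appears in both with opposite signs. WIPI1, ATG3, GABARAPL1 and NBR1 were called in both. Of the remaining calls, RB1CC1, PIK3R4, MAP1LC3B, TAX1BP1 and VMP1 passed only in 6WP against AM, and ATG101, ATG4D and OPTN only in AM against WT, and whether a gene's 2 contrasts differ was not tested. In all, 12 members were called at least once and 27 in no comparison, and the share of all genes called at least once was not counted. The 6WP mean lay between the WT and AM means for 12 members, above both for 16 and below both for 11. Neither these placements nor the calls shared by both comparisons were counted over all genes.

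**Figure D2:**
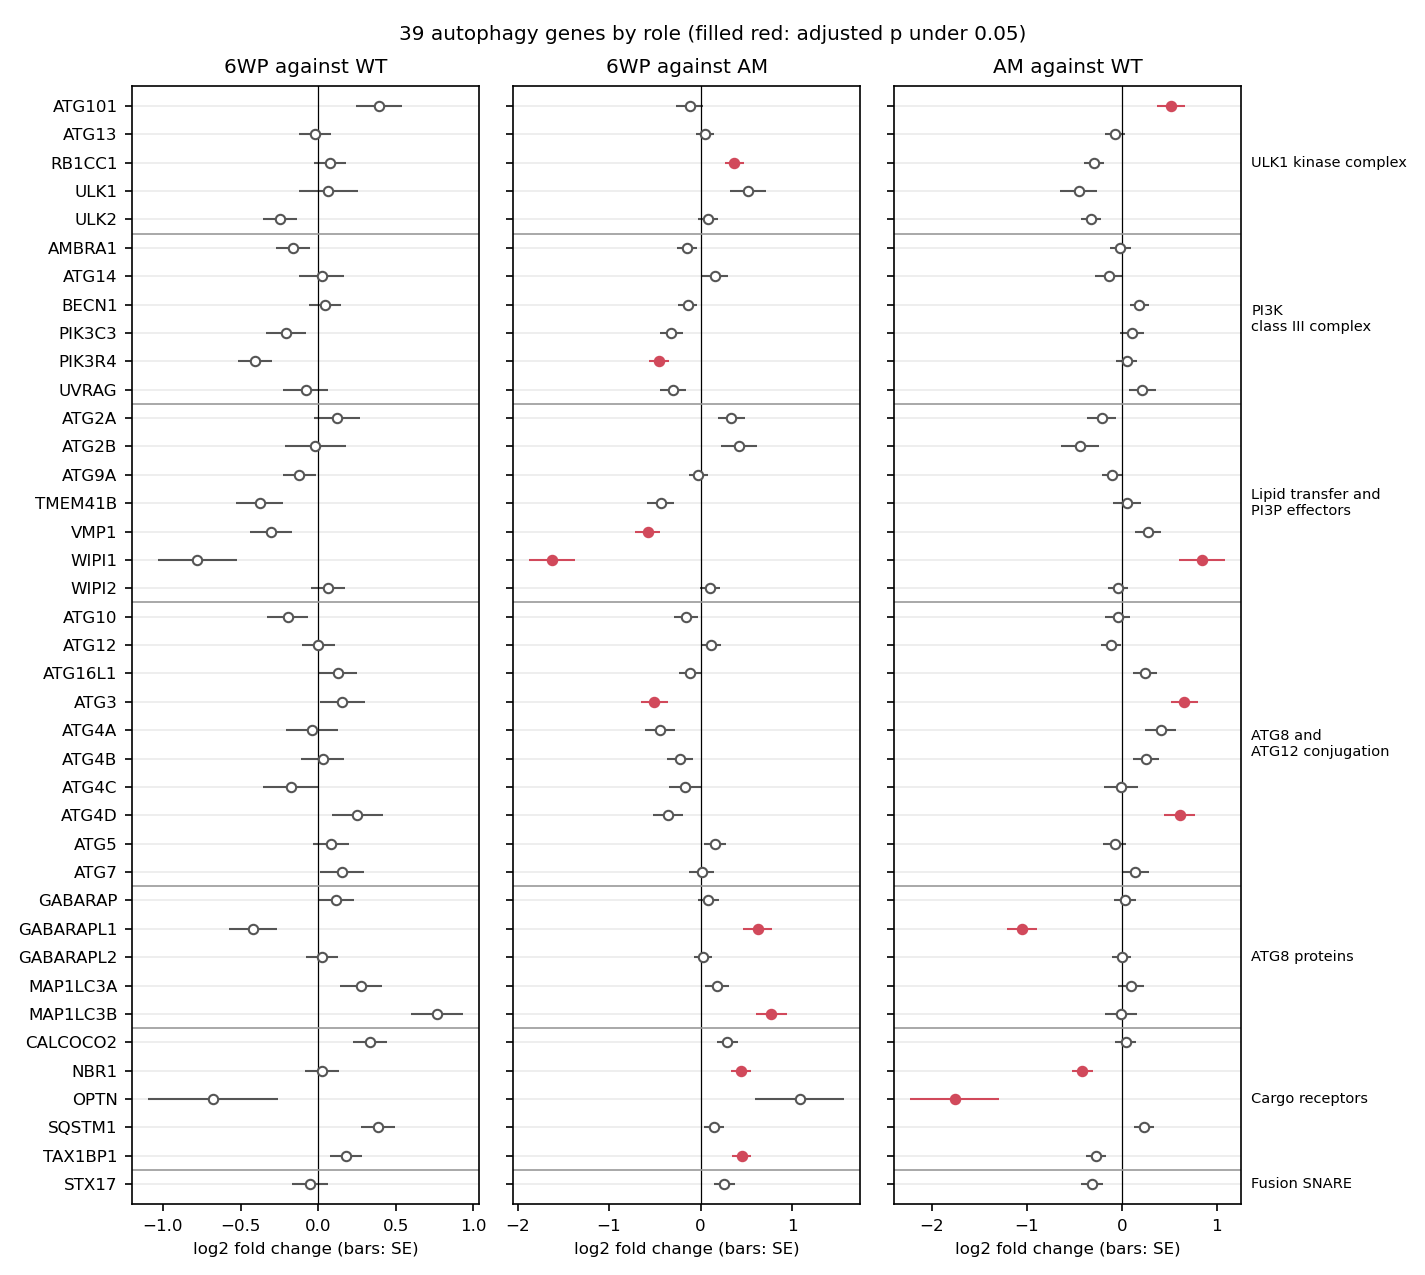
Log2 fold change with its standard error for the 39 genes, by role, in the 3 comparisons, with filled points for an adjusted p under 0.05. In 6WP against WT 0 points are filled, in 6WP against AM 9 and in AM against WT 7.

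In the ULK1 kinase complex, 1 of 5 members was higher in 6WP than in AM and 1 of 5 higher in AM than in WT. RB1CC1 (also FIP200), the large scaffold on which the complex assembles, measured 113 and 109 CPM in the WT libraries, 93.9 and 86.6 CPM in the AM libraries, and 114 and 119 CPM in the 6WP libraries. Its AM libraries were the lowest and did not overlap the others, and it was higher in 6WP than in AM (log2 fold change 0.37, SE 0.104, adjusted p = 0.0402). ATG101, a HORMA-domain partner of ATG13 (listed in the count table under an older symbol, and located at chr12:52069246-52077495, plus strand), measured 51.9 and 52.6 CPM in the WT libraries, 69.1 and 80.2 CPM in the AM libraries, and 77.4 and 59.9 CPM in the 6WP libraries. Both WT libraries were below the other 4, and the gene was higher in AM than in WT (log2 fold change 0.51, SE 0.148, adjusted p = 0.0481). Opposite-strand genes overlap 19.2% of its exon length. ULK1, the kinase that starts autophagy, measured 28.9 and 40.0 CPM in the WT libraries, 22.5 and 27.7 CPM in the AM libraries, and 32.4 and 39.6 CPM in the 6WP libraries. The WT libraries spanned both 6WP values, and ULK1 did not pass in 6WP against AM (log2 fold change 0.52, SE 0.192, adjusted p = 0.0893). ATG13 and the second kinase, ULK2, passed in no comparison and ranged from 108 to 118 CPM and from 38.4 to 49.9 CPM over the 6 libraries.

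In the PI3K class III complex, 1 of 6 members differed. PIK3R4 (also VPS15, chr3:130678934-130746829, minus strand), the regulatory subunit that anchors the lipid kinase, measured 81.7 and 77.7 CPM in the WT libraries, 83.1 and 82.1 CPM in the AM libraries, and 56.8 and 63.5 CPM in the 6WP libraries. Both 6WP libraries lay below all 4 untreated libraries, which were close to each other. PIK3R4 was lower in 6WP than in AM (log2 fold change -0.46, SE 0.109, adjusted p = 0.0239), and it did not pass against WT. The catalytic subunit PIK3C3 was also lowest in the 6WP libraries (30.9 and 30.3 CPM in WT, 34.9 and 31.2 CPM in AM, and 24.8 and 28.2 CPM in 6WP) without passing. BECN1, the scaffold subunit, ranged from 60.7 to 71.3 CPM, and ATG14, UVRAG and AMBRA1, which direct the complex to its sites, passed in no comparison.

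Among the 7 lipid transfer and PI3P effector genes, WIPI1 and VMP1 were lower in 6WP than in AM and WIPI1 was higher in AM than in WT. WIPI1 (chr17:68420948-68457513, minus strand) encodes a propeller protein that binds PI3P on the growing membrane, and it measured 7.01 and 7.67 CPM in the WT libraries, 13.5 and 12.9 CPM in the AM libraries, and 5.42 and 3.14 CPM in the 6WP libraries. The AM libraries were the highest and the 6WP libraries the lowest, with no overlap among the 3 groups. WIPI1 was lower in 6WP than in AM by the largest change of any member in that comparison (log2 fold change -1.63, SE 0.251, adjusted p = 0.00651), and higher in AM than in WT (log2 fold change 0.85, SE 0.244, adjusted p = 0.0485). Against WT, its 6WP level did not pass (log2 fold change -0.78, SE 0.256, adjusted p = 0.131), and the 6WP libraries were far apart, since replicate 1 read 1.73 times replicate 2. Without 6WP replicate 1 that log2 fold change was -1.24, and without replicate 2 it was -0.46. Exons of opposite-strand genes, ARSG among them, cover 28.1% of WIPI1's exon length, and without the strand setting of the counting those reads cannot be assigned.

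VMP1 (chr17:59707192-59842255, plus strand) and TMEM41B encode ER scramblases that supply lipid to the forming membrane. VMP1 measured 78.7 and 68.3 CPM in the WT libraries, 89.0 and 88.7 CPM in the AM libraries, and 65.9 and 53.1 CPM in the 6WP libraries. Its 6WP libraries were the lowest and its AM libraries the highest, and it was lower in 6WP than in AM (log2 fold change -0.58, SE 0.136, adjusted p = 0.0231). TMEM41B also had its lowest values in 6WP without passing, at 74.5 and 73.3 CPM in WT, 82.9 and 71.0 CPM in AM, and 49.5 and 64.2 CPM in 6WP. The lipid carriers ATG2A and ATG2B, the scramblase ATG9A and WIPI2 passed in no comparison, and ATG2B was the member with the largest excess of 6WP replicate 2, at 50.1 CPM against 32.1 CPM in replicate 1.

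In the conjugation machinery, 2 of 10 members were higher in AM than in WT and 1 of them was lower in 6WP than in AM. ATG3 (chr3:112532510-112562046, minus strand), the E2-like enzyme that passes ATG8 proteins to phosphatidylethanolamine, measured 83.5 and 75.5 CPM in the WT libraries, 124 and 128 CPM in the AM libraries, and 101 and 76.4 CPM in the 6WP libraries. The AM libraries stood above the rest, 6WP replicate 2 lay within the WT range and 6WP replicate 1 above it. ATG3 was higher in AM than in WT (log2 fold change 0.66, SE 0.145, adjusted p = 0.0217) and lower in 6WP than in AM (log2 fold change -0.50, SE 0.144, adjusted p = 0.0422). ATG4D (chr19:10543895-10553418, plus strand), a cysteine protease of the family that processes ATG8 proteins, measured 43.5 and 48.9 CPM in the WT libraries, 64.6 and 76.3 CPM in the AM libraries, and 63.0 and 47.1 CPM in the 6WP libraries. Its AM libraries were the highest and it was higher in AM than in WT (log2 fold change 0.61, SE 0.164, adjusted p = 0.0397), with 14.7% of its exon length under opposite-strand exons of KRI1. ATG4A was also highest in AM (19.7 and 17.9 CPM in WT, 23.3 and 26.6 CPM in AM, and 20.8 and 15.9 CPM in 6WP) and did not pass. ATG4B, ATG4C, ATG5, ATG7, ATG10, ATG12 and ATG16L1 passed in no comparison, and their log2 fold changes stayed between -0.23 and 0.25 over the 3 comparisons.

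In the ATG8 family, MAP1LC3B and GABARAPL1 differed and the other 3 did not pass. MAP1LC3B (chr16:87383953-87404779, plus strand) encodes LC3B, the ATG8 protein most used as a marker of autophagosomes, and it measured 77.3 and 78.0 CPM in the WT libraries, 77.3 and 77.1 CPM in the AM libraries, and 157 and 107 CPM in the 6WP libraries. All 4 untreated libraries lay within 1 CPM of each other, and both 6WP libraries were above them. The fold over AM was 1.71 (log2 fold change 0.77, SE 0.169, adjusted p = 0.0182). The change against WT was of the same size and missed the threshold (log2 fold change 0.77, SE 0.169, adjusted p = 0.0545). It passed there without the filter on low counts (adjusted p = 0.0127) and by DESeq2 (adjusted p = 0.00348). By edgeR it did not pass with DESeq2's size factors (adjusted p = 0.0552), library size only (0.0755), the replicate block (0.0561) or only the 2 groups (0.143). With a 6WP library left out, that group has no spread of its own. The log2 fold change was then 0.45 without replicate 1 and 0.99 without replicate 2. The near copy MAP1LC3B2 had between 2 and 12 counts in a library, and MAP1LC3C had 0.

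GABARAPL1 (chr12:10212458-10223128, plus strand), an ATG8 protein of the other branch of the family, measured 12.6 and 13.2 CPM in the WT libraries, 6.50 and 6.04 CPM in the AM libraries, and 10.0 and 9.30 CPM in the 6WP libraries. Its groups did not overlap, with WT highest, 6WP between and AM lowest. In AM the level was 0.484 of that in WT (log2 fold change -1.05, SE 0.158, adjusted p = 0.00737), and 6WP was higher than AM (log2 fold change 0.63, SE 0.158, adjusted p = 0.0280) but did not pass against WT. MAP1LC3A, GABARAP and GABARAPL2 stayed within 27.5 to 38.2 CPM, 333 to 398 CPM and 96.2 to 103 CPM over the 6 libraries. An antisense gene covers 8.12% of GABARAPL1's exon length.

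Among the 5 cargo receptors, NBR1 and TAX1BP1 were higher in 6WP than in AM, and NBR1 and OPTN were lower in AM than in WT. NBR1 (chr17:43170481-43211689, plus strand), which gathers ubiquitylated cargo with SQSTM1, measured 257 and 250.2 CPM in the WT libraries, 186 and 195 CPM in the AM libraries, and 240.2 and 276 CPM in the 6WP libraries. The AM libraries were lowest and the WT and 6WP libraries overlapped. NBR1 was lower in AM than in WT (log2 fold change -0.41, SE 0.110, adjusted p = 0.0375) and higher in 6WP than in AM (log2 fold change 0.44, SE 0.110, adjusted p = 0.0271). TAX1BP1 (chr7:27739331-27844564, plus strand), a ubiquitin-binding receptor, measured 149 and 138 CPM in the WT libraries, 117 and 122 CPM in the AM libraries, and 168 and 158 CPM in the 6WP libraries. Its order was 6WP, WT and AM from high to low with no overlap, and it was higher in 6WP than in AM (log2 fold change 0.45, SE 0.104, adjusted p = 0.0213).

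OPTN (chr10:13099449-13138308, plus strand), a receptor for mitochondria and bacteria, was scarcely expressed, with 20 and 23 counts in WT, 9 and 7 in AM, and 21 and 13 in 6WP. These equal 0.893 and 1.06 CPM in WT, 0.387 and 0.206 CPM in AM, and 0.759 and 0.458 CPM in 6WP. It was lower in AM than in WT (log2 fold change -1.76, SE 0.472, adjusted p = 0.0390), and with so few counts the SE was wide in 6WP against AM (log2 fold change 1.08, SE 0.488, adjusted p = 0.147) and 6WP against WT (log2 fold change -0.68, SE 0.420, adjusted p = 0.382). SQSTM1, which encodes p62, measured 177 and 181 CPM in the WT libraries, 205 and 216 CPM in the AM libraries, and 249.7 and 218 CPM in the 6WP libraries. Its 6WP libraries were the highest and its WT libraries the lowest, yet 0 of the 3 comparisons passed. CALCOCO2 (NDP52) had its highest values in the 6WP libraries as well, at 83.0 and 73.5 CPM in WT, 81.3 and 79.9 CPM in AM, and 94.6 and 103 CPM in 6WP, and did not pass. STX17, the SNARE that fuses the finished autophagosome with the lysosome, measured 48.6 and 47.5 CPM in WT, 38.8 and 38.5 CPM in AM, and 42.9 and 49.7 CPM in 6WP and passed in no comparison.

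**Figure D3:**
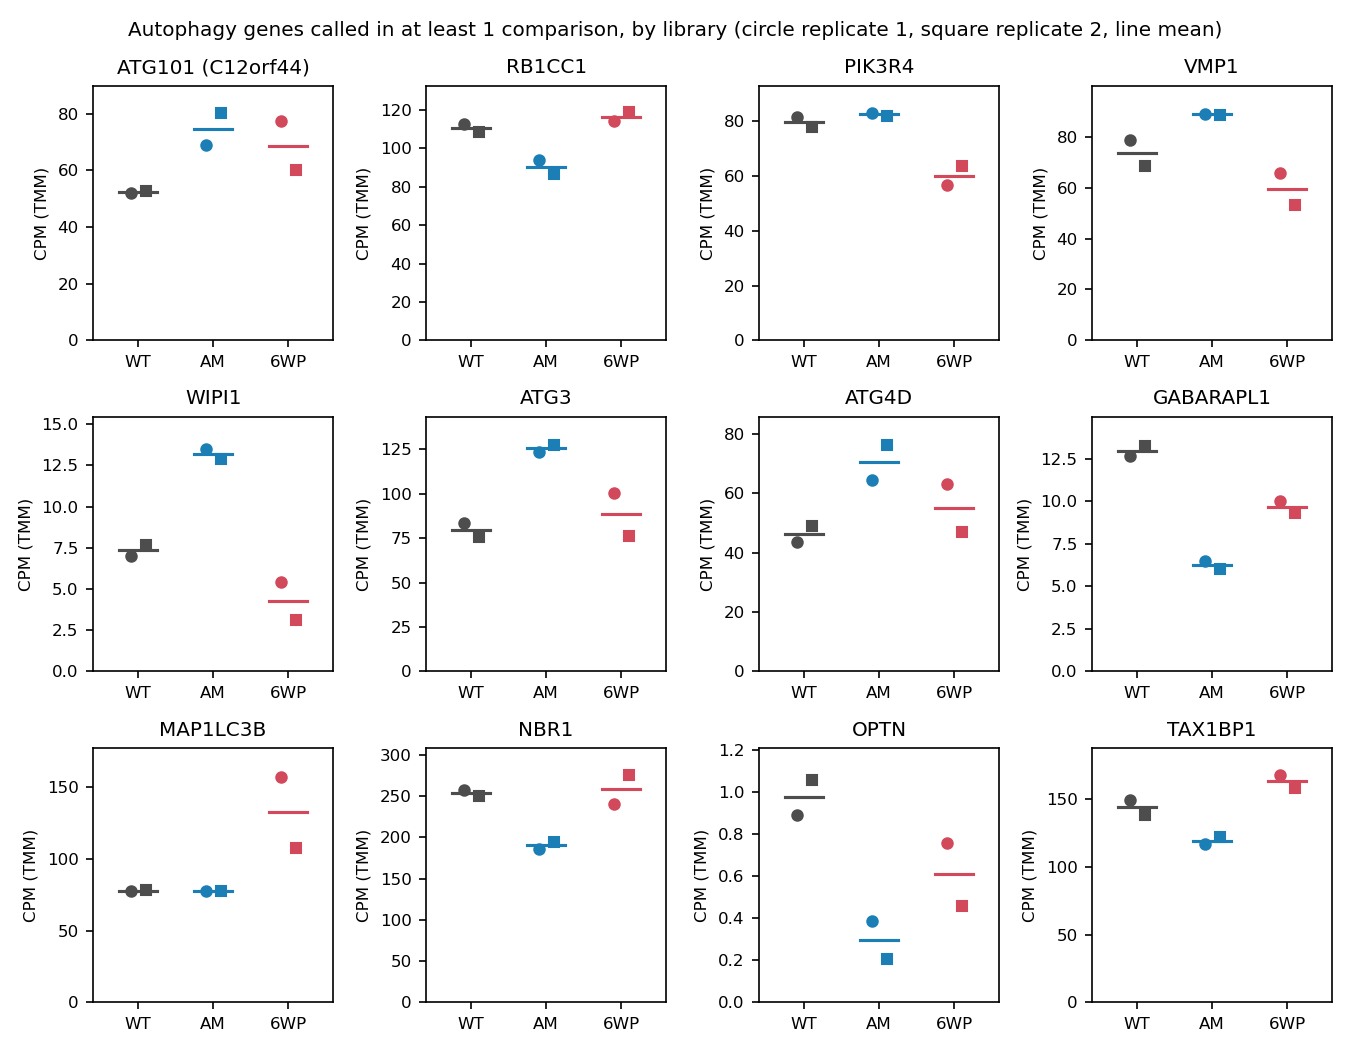
Expression in CPM of the 12 genes called in at least 1 comparison, with a panel for each gene, a circle for replicate 1, a square for replicate 2 and a line at each group's mean. WIPI1 is highest in AM and lowest in 6WP, GABARAPL1 is lowest in AM, and MAP1LC3B is raised in the 6WP libraries, replicate 1 above replicate 2.

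The promoter windows of members whose levels the comparisons turned on are printed to show the sequence at their start sites. Windows of 300 bases, 250 before the start site and 50 from it, came from RefSeq on GRCh38.p14, which held 34 of the 39 members. Both strands were searched for CACGTG, the E-box core, TCACGTGA, a longer form that contains it and is bound by TFEB-type factors, and TGATGCAA, a form bound by ATF4-type dimers. CACGTG was in 7.26% of all 35116 windows and in 2 of 34 members, ATG3 and ATG14. TCACGTGA was in 0.980% of all windows and in 1 member, ATG3, and TGATGCAA in 0.866% of all windows and in 0 members. A match describes the letters and is not a binding site, and no match says only that these letters are not in this window. The ATG3 window lies at chr3:112561913-112562212, minus strand, that of WIPI1 at chr17:68457447-68457746, minus strand, that of GABARAPL1 at chr12:10212627-10212926, plus strand and that of MAP1LC3B at chr16:87392086-87392385, plus strand. Each is written 5′ to 3′ on the gene's strand. Capitals mark the motifs in ATG3 and the first transcribed base in the other 3.
ATG3: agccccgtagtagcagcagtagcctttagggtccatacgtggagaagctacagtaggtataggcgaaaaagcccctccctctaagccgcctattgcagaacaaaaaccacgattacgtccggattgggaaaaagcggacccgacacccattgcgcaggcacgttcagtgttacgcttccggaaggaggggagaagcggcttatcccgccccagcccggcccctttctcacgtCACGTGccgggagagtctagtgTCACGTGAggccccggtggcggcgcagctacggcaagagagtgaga
WIPI1: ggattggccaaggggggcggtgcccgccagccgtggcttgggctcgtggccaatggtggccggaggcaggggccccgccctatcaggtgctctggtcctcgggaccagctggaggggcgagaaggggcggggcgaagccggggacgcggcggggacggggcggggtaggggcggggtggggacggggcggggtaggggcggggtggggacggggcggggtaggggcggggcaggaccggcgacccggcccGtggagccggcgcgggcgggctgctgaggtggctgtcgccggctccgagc
GABARAPL1: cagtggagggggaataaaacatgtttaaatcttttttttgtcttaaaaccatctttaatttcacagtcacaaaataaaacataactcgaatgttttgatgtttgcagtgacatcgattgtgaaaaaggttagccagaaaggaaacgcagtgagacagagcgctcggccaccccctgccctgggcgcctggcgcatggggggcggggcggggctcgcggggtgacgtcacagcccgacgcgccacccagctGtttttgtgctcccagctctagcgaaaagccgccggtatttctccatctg
MAP1LC3B: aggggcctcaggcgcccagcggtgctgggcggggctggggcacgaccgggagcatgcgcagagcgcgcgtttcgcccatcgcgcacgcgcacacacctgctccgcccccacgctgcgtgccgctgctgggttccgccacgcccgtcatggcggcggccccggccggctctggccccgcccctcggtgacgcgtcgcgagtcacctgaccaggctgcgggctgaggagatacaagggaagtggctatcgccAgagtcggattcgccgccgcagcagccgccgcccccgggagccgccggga
GC content was 59.0% in the ATG3 window, 79.7% in WIPI1, 51.7% in GABARAPL1 and 75.7% in MAP1LC3B. These 4 genes did not move alike, since WIPI1 and ATG3 were higher in AM than in WT, GABARAPL1 was lower, and MAP1LC3B did not pass between those groups.

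Around the core machinery, 68 further genes of the pathway were listed and 66 were tested, MAP1LC3B2 and MAP1LC3C having too few counts. In 6WP against WT 6 of 66 passed, 4 higher and 2 lower, 9.09% beside the 3.00% of all genes. In 6WP against AM 16 passed, 11 higher and 5 lower, and in AM against WT 13 passed, 6 higher and 7 lower, which are 24.2% and 19.7% of the list beside 21.3% and 17.7% of all genes. Of 24 upstream regulators, 4 passed in 6WP against WT (16.7%, 3 higher and 1 lower). In 6WP against AM 8 passed (33.3%, 7 higher and 1 lower), and in AM against WT 7 passed (29.2%, 3 higher and 4 lower). In the same order of comparisons, 0, 5 and 4 of 18 organelle receptors passed, 2, 2 and 1 of 12 accessory core factors, and 0, 1 and 1 of 12 genes for fusion with the lysosome. No subgroup was tested against the background. The lists were chosen with earlier results of these data known, so a share above that of all genes is not evidence about the pathway.

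DDIT4 (REDD1), a stress-induced inhibitor of mTORC1, the kinase complex that holds ULK1 in check, measured 33.6 and 38.0 CPM in the WT libraries, 57.2 and 78.5 CPM in the AM libraries, and 144 and 127 CPM in the 6WP libraries. The 3 groups did not overlap, and it was higher in 6WP than in WT (log2 fold change 1.92, SE 0.170, adjusted p = 0.00448) and than in AM (log2 fold change 0.99, SE 0.164, adjusted p = 0.00763). Without the drug, it was also higher in AM than in WT (log2 fold change 0.92, SE 0.167, adjusted p = 0.0118). SESN2, a leucine sensor that also restrains mTORC1, measured 36.3 and 35.6 CPM in the WT libraries, 47.6 and 57.1 CPM in the AM libraries, and 119 and 87.9 CPM in the 6WP libraries. Its groups were ordered WT, AM and 6WP from low to high without overlap. SESN2 was higher in 6WP than in WT (log2 fold change 1.53, SE 0.168, adjusted p = 0.00654) and than in AM (log2 fold change 0.98, SE 0.165, adjusted p = 0.00818). It did not pass in AM against WT (log2 fold change 0.54, SE 0.166, adjusted p = 0.0583). TRIB3, a pseudokinase induced by ATF4, measured 122 and 125 CPM in the WT libraries, 199 and 235 CPM in the AM libraries, and 515 and 246 CPM in the 6WP libraries. Its 6WP libraries differed by a wide margin, and it was higher than in WT (log2 fold change 1.62, SE 0.295, adjusted p = 0.0329) but did not pass against AM (log2 fold change 0.81, SE 0.289, adjusted p = 0.0800).

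Of the 18 organelle receptors, CALCOCO1 and CCPG1 were called at a log2 fold change of 1 or more in 6WP against AM. CALCOCO1, a receptor for the endoplasmic reticulum, measured 49.4 and 52.4 CPM in the WT libraries, 19.9 and 24.6 CPM in the AM libraries, and 46.7 and 53.4 CPM in the 6WP libraries. The AM libraries were low and the WT and 6WP libraries overlapped, with 6WP higher than AM (log2 fold change 1.17, SE 0.142, adjusted p = 0.00344) and AM lower than WT (log2 fold change -1.19, SE 0.142, adjusted p = 0.00370). CCPG1, another receptor for the endoplasmic reticulum, measured 6.65 and 5.65 CPM in the WT libraries, 5.08 and 4.89 CPM in the AM libraries, and 11.6 and 8.85 CPM in the 6WP libraries. Its 6WP libraries were the highest, and it was higher in 6WP than in AM (log2 fold change 1.04, SE 0.203, adjusted p = 0.0130) but did not pass against WT (log2 fold change 0.73, SE 0.202, adjusted p = 0.0902). Among other receptors for that organelle, named after their values were seen, RETREG1 was higher in 6WP than in AM (log2 fold change 0.94), while ATL3 (-0.25), TEX264 (-0.28), RTN3 (-0.02) and SEC62 (-0.00) did not pass.

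**Figure D4:**
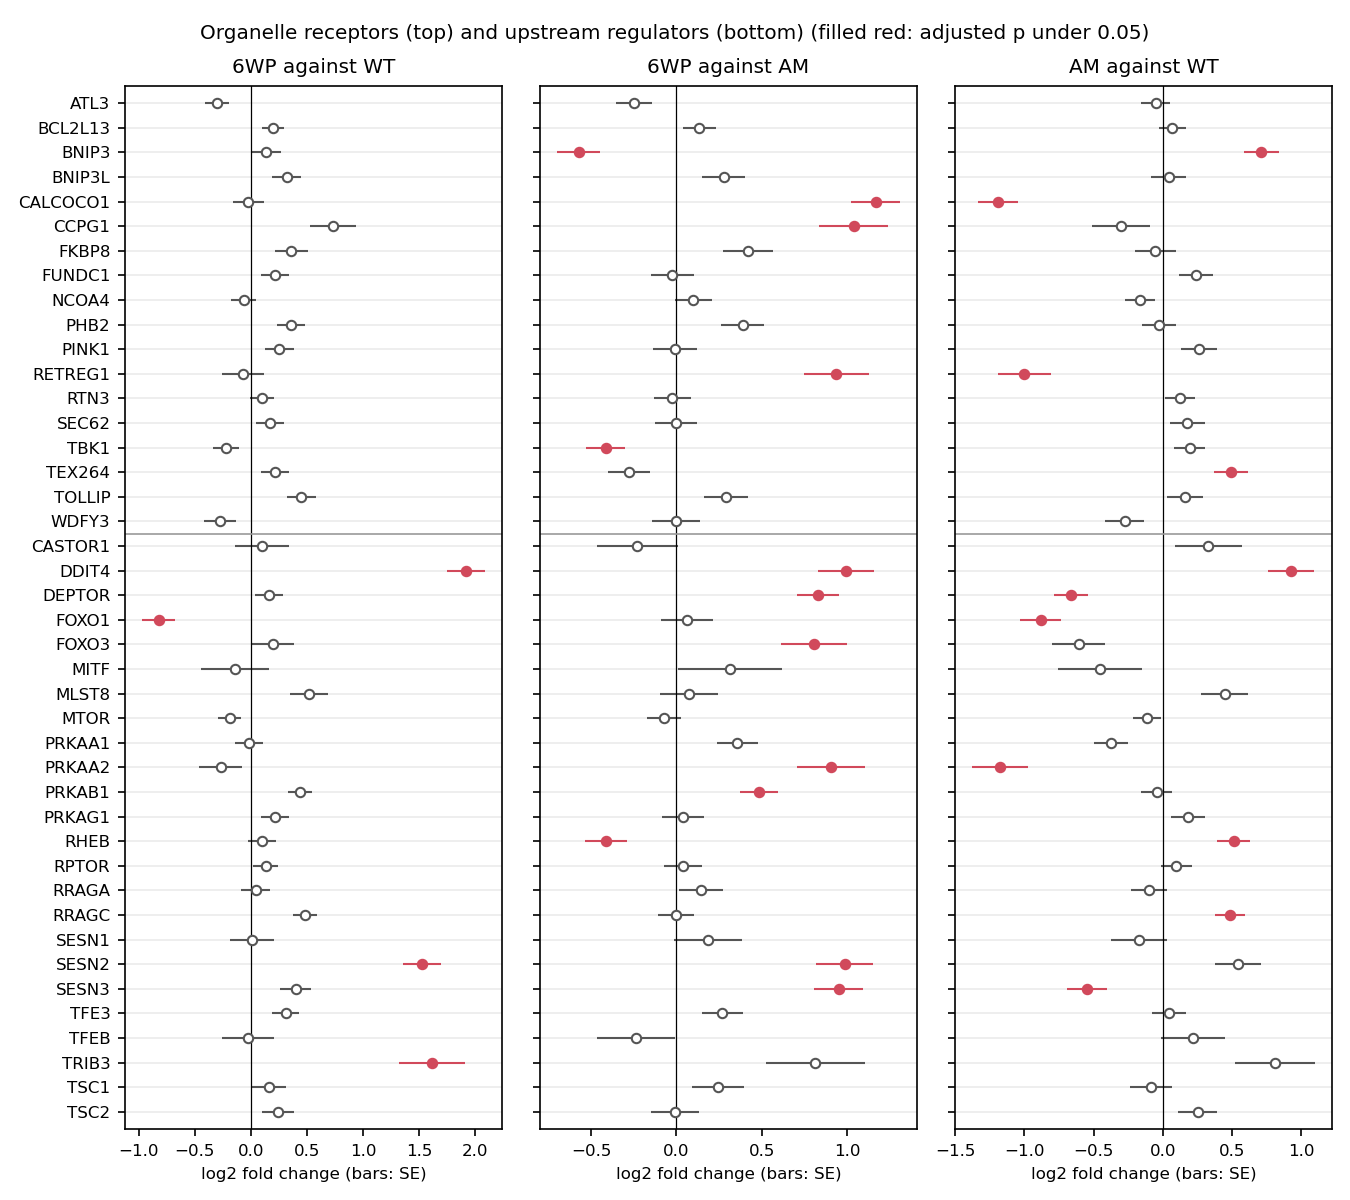
Log2 fold change with its standard error for 18 organelle receptors (top) and 24 upstream regulators (bottom) in the 3 comparisons, with filled points for an adjusted p under 0.05. DDIT4, SESN2 and TRIB3 have the largest rises in 6WP against WT.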

How the data were processed

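RNA was measured in 6 libraries of 22Rv1 cells, 2 per group. Per the labels, libraries were made with a stranded TruSeq kit and sequenced as single end reads, and the submitters' processing notes name hg38, STAR 2.5.3a, featureCounts 1.5.3, StringTie 1.3.3, edgeR 3.22.3 and R 3.5.0. The table the authors deposited holds raw counts by gene symbol, neither normalized nor pooled, and 0 columns were left unused. The gene annotation and the strand setting of the counting are not given in the sources used here.

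Counts were analysed in R 4.3.3 with edgeR 4.0.16. Genes were filtered with filterByExpr over the 3 groups (14672 of 29804 kept), scaled by TMM, and fitted with a quasi-likelihood model to all 6 libraries without covariates (common dispersion 0.0173). Tests were two-sided, p-values took a Benjamini-Hochberg adjustment across the 14672 genes, and called means adjusted p under 0.05. Each SE was taken from the log2 fold change and its F statistic. The pipeline was tested on simulated data. Alternatives were DESeq2 1.42.0 (Wald test, and its size factors in edgeR), library size only, no filter beyond 1 count, the 2 groups alone, a replicate block, and each library left out. Genes were named with statistics where called or at an absolute log2 fold change of 0.5 or more, and further pathway genes where called at 1 or more in 6WP against WT or AM. Members and lists were chosen with earlier results of these data known. ATG101 was matched by a RefSeq synonym. Positions and transcript lengths are from GENCODE v44 on GRCh38. Floors cover counting error only.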

Additional observations from a re-analysis of the deposited data

How the results depend on the processing

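Of the 16 called pairs of member and comparison, 0 stayed past the threshold under each of the 12 alternatives, and 0 changed direction. In 6WP against WT, where 0 members were called, 1 was called without a filter beyond 1 count and 2 by the Wald test of DESeq2, and leaving out each library in turn gave 0 to 8, beside 0.00% to 26.0% of all genes. In 6WP against AM, 9 called members became 1 when only the 2 groups compared were fitted, and 0 to 18 with a library left out, beside 9.07% and 0.775% to 45.8% of all genes. In AM against WT, 7 became 17 with only the 2 groups, and 0 to 17 with a library left out, beside 46.5% and 0.448% to 44.7% of all genes. A group left with 1 library is assumed to vary like the others, and fewer libraries were fitted. The fit shares a single spread, and the 6WP libraries varied most, with a median SD of the members of 0.133 on the log2 scale against 0.0467 in WT and 0.0686 in AM. DESeq2's size factors gave 0, 8 and 7 called members in the 3 comparisons and library size only gave 0, 8 and 5.

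The replicate numbers were not taken to pair the samples, since same-numbered libraries of different groups deviated together with correlations of 0.0395, 0.0873 and -0.0206 over genes. With the replicate block, 0, 9 and 5 members were called, beside 2.68%, 20.9% and 16.9% of all genes. By adjusted p, RB1CC1 (0.0599) was lost and ULK1 (0.0279) gained in 6WP against AM, and ATG101 (0.0612) and ATG4D (0.0508) were lost in AM against WT. With 21222201 or more counts per library, depth limited mainly OPTN, with 7 to 23 counts.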

Other observations

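The 6WP libraries differed from each other more than the untreated pairs did. The chi-square per degree of freedom between replicates was 63.9 in 6WP, 5.67 in WT and 9.14 in AM, where counting error alone gives 1. It was taken over genes above a low total count within each group, not over the tested genes. Among the members, replicate 1 read higher than replicate 2 in 22 of 39 genes in 6WP, 18 in WT and 16 in AM. The widest 6WP ratios of replicate 1 to replicate 2 were 1.73 for WIPI1, 1.66 for OPTN, 1.46 for MAP1LC3B and 1.38 for ATG4C, and at the other end 0.641 for ATG2B, 0.771 for TMEM41B and 0.817 for ULK1. Members of the same step thus stood on both sides, with ATG2B and TMEM41B higher in replicate 2 and WIPI1 higher in replicate 1.

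RETREG1, an ER-phagy receptor named after its values were seen, measured 32.6 and 27.9 CPM in WT, 15.9 and 14.3 CPM in AM, and 34.1 and 23.7 CPM in 6WP. Its AM libraries were the lowest and did not overlap the others, as for CALCOCO1. It was higher in 6WP than in AM by edgeR (log2 fold change 0.94, adjusted p = 0.0147) and lower in AM than in WT (adjusted p = 0.0138).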
